A study of Hordeum vulgare with 12 samples.

Results

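Roots and shoots of barley (Hordeum vulgare, cultivar Golden Promise) were compared by small RNA sequencing in plants that had not been given a nitrogen excess. The comparison rests on 6 of the 12 libraries of the study, namely 3 of control shoot and 3 of control root, and it was made by joining the shoot and the root count table on the sequence of each listed miRNA and scaling the raw counts together. All plants were 2 weeks old and grew in perlite, 2 seedlings to a pot, with a medium that held 28 mM NH4NO3 and 8 µM CuSO4. The other 6 libraries came from plants given 280 mM NH4NO3 in the same medium and are used here only as a second view of the organ difference. The labels give 3 biological replicates for each group, and the sources used here do not say whether a shoot and a root library with the same number share plants. Whole organs were sampled, so fewer cells of a type and less of a miRNA per cell cannot be told apart.

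Plant miRNAs are cut from hairpin precursors as a duplex, of which one strand, the guide, is kept by an Argonaute protein while the other is mostly lost. The endings 5p and 3p give the arm of the hairpin on which a strand lies. The guide pairs almost completely with its target transcript, which is then cut or held back from translation. Many conserved families act on transcription factors that set organ identity and growth. miR166 acts on the HD-ZIP III factors of leaf polarity and root vasculature, miR171 on GRAS factors of the meristem, miR319 on TCP factors, miR396 on growth-regulating factors (GRFs), and miR160, miR167 and miR393 on auxin response factors and auxin receptors.

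The sequences that carry the organ difference are printed first, as the deposited tables list them, in DNA letters and 5′ to 3′. Capitals mark the seed, bases 2 to 8. Identical sequences can carry several names in the tables, of which 1 is used here, and its prefix gives the species of that name: hvu barley, tae wheat, ata Aegilops tauschii, bdi Brachypodium distachyon, osa rice, gma soybean, ath Arabidopsis, bna oilseed rape, cme melon, zma maize and ppt the moss Physcomitrium. All were read from barley RNA here. The first pair shares a seed and went in opposite directions.
hvu-miR166b: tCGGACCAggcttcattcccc
ata-miR5168-3p: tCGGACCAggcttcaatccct
The next group holds the main miR319 sequence and the pair that marked root.
bdi-miR319b-3p: tTGGACTGaagggtgctccct
tae-miR319: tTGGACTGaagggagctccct
ppt-miR319c: cTTGGACTgaagggagctccc
The miR171 hairpins gave one sequence that marked root and 2 from the other arm that were abundant in shoot.
ata-miR171a-3p: tGAGCCGAaccaatatcactc
hvu-miR171-5p: tGTTGGCTcgactcactcaga
osa-miR171e-5p: tGTTGGCTcggctcactcaga
Of miR167 and of miR396, a 5p sequence called higher in shoot and a 3p sequence called higher in root are shown.
ata-miR167f-5p: tGAAGCTGccagcatgatctgc
ata-miR167a-3p: gATCGTGCtgtgacagtttcacc
ata-miR396c-5p: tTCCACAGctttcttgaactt
ata-miR396e-3p: gTTCAATAaagctgtgggaaa
The last pair is a shoot sequence of the auxin group and the sequence that took the largest share of a root library after hvu-miR166b.
bdi-miR160e-5p: tGCCTGGCtccctgaatgcca
gma-miR6300: gTCGTTGTagtatagtgg
With positions counted from 1 at the 5′ end, hvu-miR166b and ata-miR5168-3p differ by T16A and C21T, and bdi-miR319b-3p and tae-miR319 by T14A. osa-miR171e-5p and hvu-miR171-5p differ by G11A. The sequence ppt-miR319c is tae-miR319 shifted by 1 base, with 20 bases in common, so its seed is shifted too. The sources used here do not give the number of mismatches allowed when the authors counted, so counts of sequences this close may be shared between them.

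The tables list 3258 sequences of 17 to 28 nt, of which 457 had a count in a control library. Summed over the listed sequences, the 3 shoot libraries held 1215590 to 1303233 counts and the 3 root libraries 655033 to 1633631. These totals cover listed miRNAs and are not the sequencing depth. Levels are given as CPM, the count divided by the total of the library and multiplied by 1000000. Differences are log2 ratios of root to shoot after TMM scaling, a method that sets the bulk of the sequences equal between libraries, with the standard error (SE) behind ±. A sequence is called when edgeR's quasi-likelihood test gave a p below 0.05 after Benjamini-Hochberg adjustment over all sequences tested.

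One library did not resemble its label. Over 144 sequences the library labelled control root 3 had a mean Spearman rho of 0.876 with the control shoots and of 0.679 with the other control roots. Root 1 and root 2 stood at 0.746 and 0.728 with the shoots and at 0.780 and 0.762 with the other roots, and these 2 means include the library labelled root 3. The shoots stood at 0.875 to 0.923 with each other. The closest of all 11 other libraries to the one labelled root 3 was nitrogen-excess shoot 2. Where the difference of a called sequence or family is stated, it is therefore given for the 5 libraries without the one labelled root 3. Where it could be tested, it is also given for the 6 as labelled. Some called sequences are described by their levels alone. A difference of a sequence that was not called is from the 5 libraries unless stated. Leaving it out is a choice made on the measured profiles, and the 5-library values hold only for 2 root libraries against 3 shoot libraries.

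With the 6 libraries as labelled, edgeR's quasi-likelihood test called 0 of 144 sequences (0%), with a lowest adjusted p of 0.121. At an unadjusted p below 0.05 there were 18, limma-voom called 0, and DESeq2 called 16, of which 15 were higher in root. In 17 of the 144 (11.8%) the TMM-scaled groups did not overlap, with 4 higher in root (2.78%) and 13 higher in shoot (9.03%). The 4 were tae-miR319, ppt-miR319c, osa-miR166e-3p and ata-miR160c-3p. Among the 13 were ata-miR5168-3p, bdi-miR160e-5p, gma-miR393k, tae-miR9773, hvu-miR5049a and ata-miR390-5p. Of 56 families, 0 were called (0%), with 10 at an unadjusted p below 0.05, and DESeq2 called 12. In 13 of the 56 (23.2%) the TMM-scaled groups did not overlap, and in all 13 (23.2%) the shoots were higher. On equal totals 1 family did not overlap with the roots higher and 8 with the shoots higher.

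Without the library labelled root 3, 40 of 153 sequences were called (26.1%), 27 higher in root (17.6%) and 13 higher in shoot (8.50%). In all 40 the TMM-scaled groups did not overlap, which held for 76 of the 153 (49.7%). For both sets of libraries, this overlap was judged after TMM scaling of the 6 control libraries together, with no filter. Of 65 families, 23 were called (35.4%), 17 higher in root (26.2%) and 6 higher in shoot (9.23%). In 45 of the 65 (69.2%) the groups did not overlap, with 21 higher in root (32.3%) and 24 higher in shoot (36.9%). The common biological coefficient of variation was 0.782 with the 6 libraries and 0.621 with the 5. With the 6 libraries, 20 of the root sequences and all 13 shoot sequences were also tested. The other 7 root sequences, tae-miR5384-3p, hvu-miR6181, osa-miR6250, tae-miR9778, hvu-miR6187, tae-miR9675-3p and bdi-miR5059, passed the filter on low counts only when the library labelled root 3 was left out. They are therefore high in root 1 and root 2 by the way they were kept, and their p-values support nothing further. The same holds for 7 of the 17 root families, miR5384, miR6181, miR6250, miR9778, miR6187, miR9675 and miR5059. Another 4 of the 17, miR6300, miR894, miR8175 and miR5054, carry names that look like pieces of rRNA or tRNA.

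**Figure D1:**
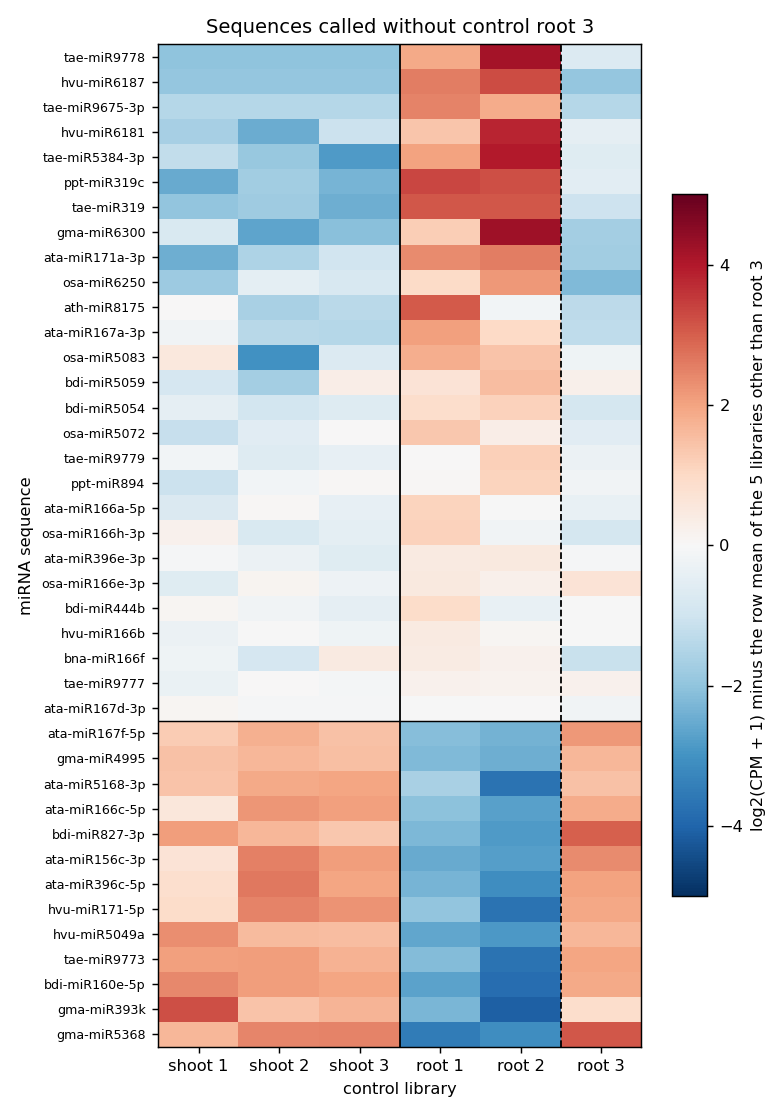
The 40 sequences called without the library labelled root 3 are shown as rows and the 6 control libraries as columns, and the colour is log2(CPM + 1) minus the row mean of the other 5 libraries. The column of root 3 lies nearer the shoot mean in 24 of 27 root sequences and in 13 of 13 shoot sequences. The 27 include 7 that passed the filter on low counts only without root 3, so its low values there follow from how they were kept. The same comparison was not made for the other tested sequences, so it is not known to be particular to these 40.

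The scale of a difference depends on hvu-miR166b and gma-miR6300, which together fill more of root 1 and root 2 than of the shoots. The median difference over the 153 sequences was -0.07 after TMM scaling and -1.89 when libraries were scaled to equal totals, and with the 6 libraries the medians were 0.02 and -0.75. All 27 root and all 13 shoot sequences kept their sign on equal totals. There, the 13 shoot sequences were all called again, among 56 called higher in shoot, and 13 of the 27 root sequences were called again. These 13 were tae-miR319, ppt-miR319c, ata-miR171a-3p, ata-miR167a-3p, gma-miR6300, ath-miR8175 and bdi-miR5054, and 6 of those kept by the filter only without the library labelled root 3. The 56 higher in shoot also held ata-miR167d-5p, osa-miR171e-5p, hvu-miR5048b, osa-miR444b.1, gma-miR156q, bdi-miR827-5p and ata-miR5200-5p, which are described below and were not called after TMM scaling. The remaining 14 root sequences, hvu-miR166b and 4 other miR166 sequences among them, are higher in root relative to the bulk of the miRNAs and were not called as a share of all counts.

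**Figure D2:**
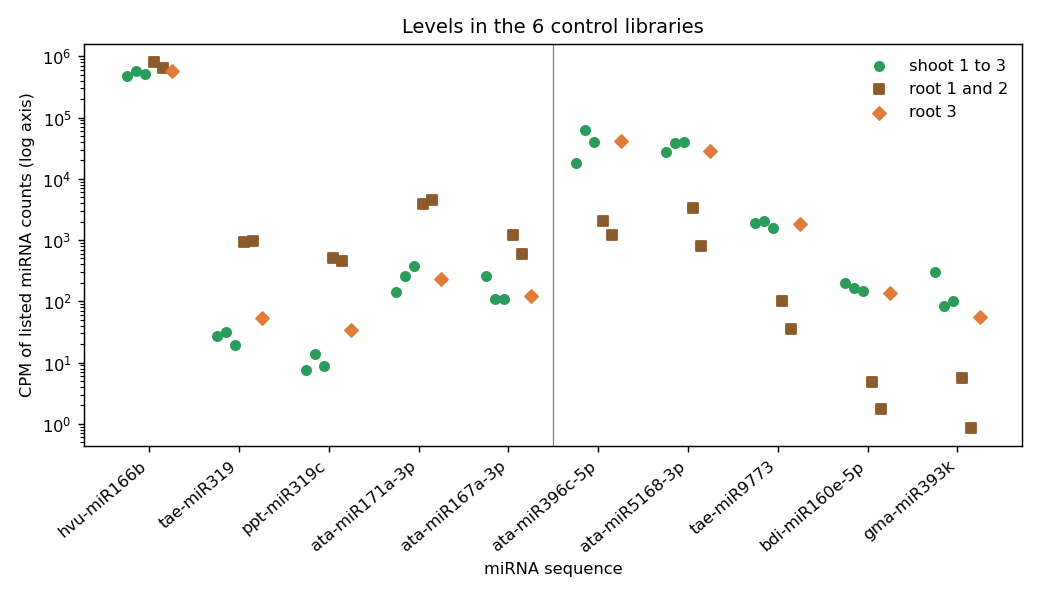
Each point is the level of a sequence in 1 control library, in CPM on a log axis, with 5 sequences called higher in root on the left and 5 called higher in shoot on the right. In 9 of them the library labelled root 3 lies far from root 1 and root 2 and near the shoots, and hvu-miR166b differs least.

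The meristem and polarity group held the most abundant miRNA of both organs. The miR166 sequence hvu-miR166b took 48.0%, 57.5% and 51.2% of the counts of shoot 1, 2 and 3. It took 79.8%, 63.7% and 57.6% of root 1, 2 and 3. The root libraries were all higher than 57.5%, but the library labelled root 3 exceeded shoot 2 by less than 0.1 percentage points. Without it, hvu-miR166b was higher in root by 2.29 ± 0.185 on the log2 scale (adjusted p = 0.000739, edgeR's quasi-likelihood test), and with it by 1.91 ± 0.773 (adjusted p = 0.292). On equal totals the difference of the 5 libraries was 0.46 with an adjusted p of 0.208 in the same edgeR test. The miR166 family as a whole followed this sequence, at 2.04 ± 0.283 (adjusted p = 0.00184, edgeR) with 5 libraries and 2.05 (adjusted p = 0.198, edgeR) with 6. With hvu-miR166b left out, the rest of the family stood at -0.62 relative to the median of all families with the 6 libraries, where the whole family stood at 1.92.

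Within the miR166 family the organs differed in which sequence was counted. ata-miR5168-3p, which also carries a name of the miR166 family and has the miR166 seed, stood at 26958, 37894 and 40071 CPM in shoot 1, 2 and 3. It stood at 3320, 796 and 27883 CPM in root 1, 2 and 3. Its share of all miR166 counts was 5.24% to 7.13% in shoot, 0.412% and 0.124% in root 1 and 2, and 4.56% in the library labelled root 3. These shares do not depend on scaling, and all 3 root libraries lay below all 3 shoots. The TMM difference was -2.33 ± 0.631 (adjusted p = 0.0338, edgeR) with 5 libraries and -1.60 ± 0.794 (adjusted p = 0.369, edgeR) with 6. Of 4 called sequences with this seed, 3 were higher in root and ata-miR5168-3p was higher in shoot. The 5 tested sequences within 1 base of hvu-miR166b included 3 called higher in root, bna-miR166f, osa-miR166e-3p and osa-miR166h-3p, and their counts may be shared with it.

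The opposite arm of the miR166 hairpins was called in both directions. ata-miR166a-5p stood at 512 to 881 CPM in shoot, at 1843 and 850 CPM in root 1 and 2, and at 655 CPM in the library labelled root 3. It was called higher in root by 2.79 ± 0.559 (adjusted p = 0.0141, edgeR), and by 2.32 with 6 libraries (adjusted p = 0.292, edgeR), although in CPM root 2 lies inside the range of the shoots. ata-miR166c-5p stood at 43.0, 135 and 121 CPM in shoot, at 6.12 and 3.48 CPM in root 1 and 2, and at 105 CPM in the library labelled root 3, and was called higher in shoot (-2.51 ± 0.743, adjusted p = 0.0469, edgeR). With 6 libraries it stood at -1.33 (adjusted p = 0.43, edgeR).

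Of the families whose composition was computed, miR171 changed most between the organs. ata-miR171a-3p stood at 140, 260 and 383 CPM in shoot 1, 2 and 3, at 3910 and 4455 CPM in root 1 and 2, and at 227 CPM in the library labelled root 3. Root 1 and 2 were thus on average 16.0 times the shoot mean, and the library labelled root 3 lay inside the range of the shoots. The TMM difference was 5.89 ± 0.641 (adjusted p = 0.00148, edgeR) without that library and 5.42 ± 1.48 (adjusted p = 0.196, edgeR) with it. As a share of all miR171 counts it was 6.06%, 4.36% and 7.66% in shoot, 82.6% and 94.1% in root 1 and 2, and 5.83% in the library labelled root 3.

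In shoot the 5p arm held the larger share of miR171. osa-miR171e-5p held 38.6% to 63.6% of the miR171 counts in shoot, 4.93% and 0.975% in root 1 and 2, and 58.5% in the library labelled root 3. hvu-miR171-5p held 23.2% to 26.6%, 1.47% and 0.441%, and 27.8%. In CPM hvu-miR171-5p stood at 536 to 1583 in shoot, at 69.8 and 20.9 in root 1 and 2, and at 1087 in the library labelled root 3. It was called higher in shoot (-2.86 ± 0.792, adjusted p = 0.0369, edgeR; with 6 libraries -1.59, adjusted p = 0.398), while osa-miR171e-5p was not called after TMM scaling (-2.41, adjusted p = 0.107, edgeR). The sum of the family hid this exchange: it was 2305 to 5956 CPM in shoot and 3904 to 4734 CPM in root, a difference of 1.77 ± 0.638 with 5 libraries (adjusted p = 0.0608, edgeR) and of 1.84 with 6 (adjusted p = 0.256, edgeR).

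**Figure D3:**
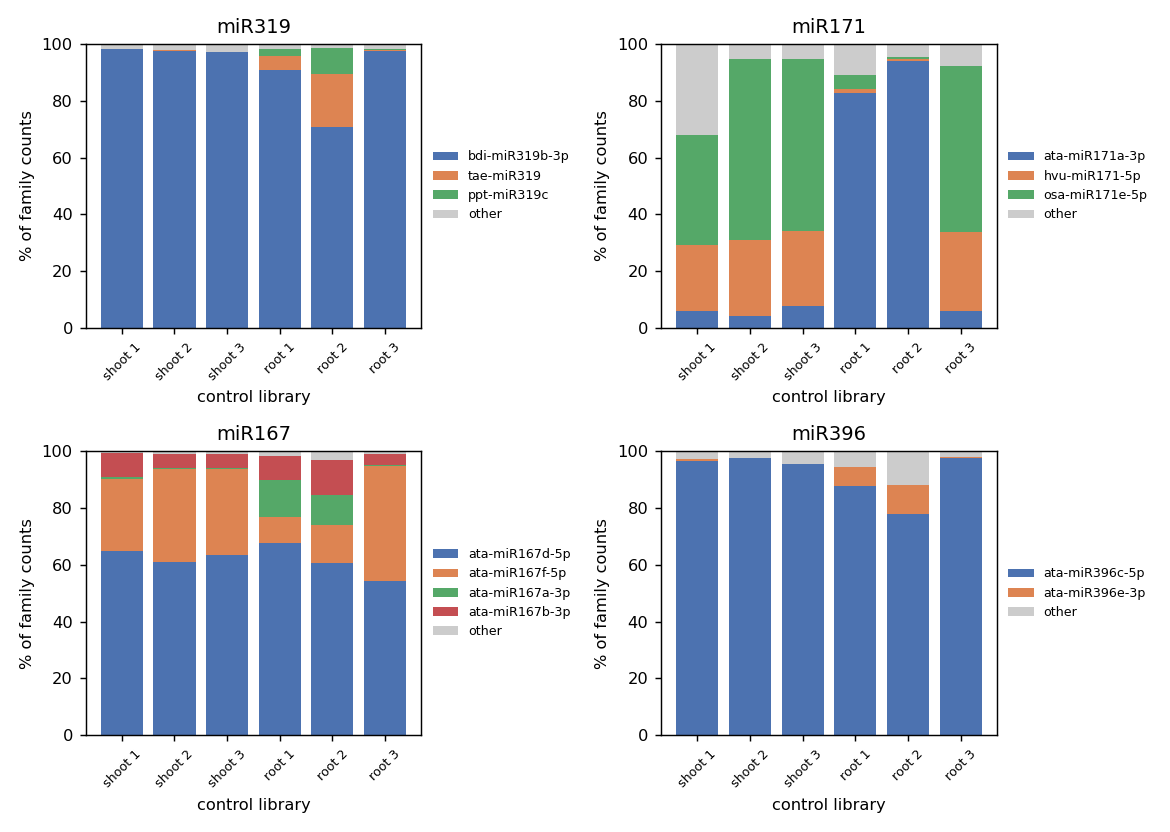
Bars give the percentage of the counts of a family held by each sequence in the 6 control libraries, for miR319, miR171, miR167 and miR396. Root 1 and root 2 differ from the shoots in each panel, most in miR171, where ata-miR171a-3p holds 82.6% and 94.1%, and the library labelled root 3 looks like the shoots.

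Over the 26 tested sequences of the meristem and polarity list (the miR166, miR171 and miR394 groups), 6 were called higher in root and 3 higher in shoot without the library labelled root 3, where 17.6% and 8.50% of all 153 were called. The median difference was 0.80 against -0.07 over all 153. With the 6 libraries 0 of the 26 were called. miR394, which acts on an F-box gene of the shoot meristem, was not called as a family (-0.47, adjusted p = 0.795, edgeR).

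Among the miRNAs of growth and proliferation, 2 rare miR319 sequences marked root and miR396 marked shoot. tae-miR319 stood at 26.9, 31.3 and 19.4 CPM in shoot 1, 2 and 3. It stood at 940, 957 and 53.4 CPM in root 1, 2 and 3. All roots were above all shoots, and the library labelled root 3 was much nearer the shoots than the other roots. The difference was 7.03 ± 0.659 with 5 libraries (adjusted p = 0.000739, edgeR) and 6.58 ± 1.53 with 6 (adjusted p = 0.121, edgeR), the latter the lowest adjusted p of the 6-library test, which ppt-miR319c shared. The shifted sequence ppt-miR319c followed it, at 7.67, 14.0 and 8.90 CPM in shoot, 504 and 456 CPM in root 1 and 2, and 33.6 CPM in the library labelled root 3, with a difference of 7.39 ± 0.670 (adjusted p = 0.000739, edgeR) with 5 libraries and 6.93 ± 1.52 (adjusted p = 0.121, edgeR) with 6.

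The main miR319 sequence did not share that difference. bdi-miR319b-3p stood at 16542 to 18129 CPM in shoot, at 17610 and 3606 CPM in root 1 and 2, and at 11894 CPM in the library labelled root 3, with a difference of 0.99 (adjusted p = 0.282, edgeR). tae-miR319 made up 0.114% to 0.169% of the miR319 counts in shoot, 4.85% and 18.8% in root 1 and 2, and 0.438% in the library labelled root 3. bdi-miR319b-3p made up 97.1% to 98.1% in shoot and 90.8% and 70.7% in root 1 and 2. The family sum was not called, at 1.16 ± 0.659 (adjusted p = 0.193, edgeR).

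miR396, which acts on the GRF factors of cell proliferation, was higher in shoot. Its main sequence ata-miR396c-5p stood at 18083, 62760 and 40115 CPM in shoot 1, 2 and 3. It stood at 2044, 1188 and 41633 CPM in root 1, 2 and 3. The shoots were on average 25.0 times the mean of root 1 and 2, and the library labelled root 3 lay inside the range of the shoots. The TMM difference was -2.80 ± 0.612 (adjusted p = 0.0207, edgeR) with 5 libraries and -1.46 ± 0.889 (adjusted p = 0.405, edgeR) with 6. The family difference was -2.75 ± 0.731 (adjusted p = 0.0217, edgeR) with 5 libraries and -1.22 (adjusted p = 0.393, edgeR) with 6.

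The other arm of miR396 went the other way. ata-miR396e-3p stood at 109, 92.1 and 73.6 CPM in shoot, at 153 and 158 CPM in root 1 and 2, and at 108 CPM in the library labelled root 3. As a share of miR396 counts it was at most 0.582% in shoot against 6.57% and 10.4% in root 1 and 2. It was called higher in root by 2.59 ± 0.577 after TMM scaling (adjusted p = 0.0207, edgeR) and was not called on equal totals (0.77, adjusted p = 0.244, edgeR) or with 6 libraries (2.22, adjusted p = 0.297, edgeR). miR159, which acts on GAMYB factors, had its highest level in a shoot, with hvu-miR159b at 150140 CPM in shoot 1 and 20038 and 21769 CPM in shoot 2 and 3 against 11792 to 43725 CPM in root, and was not called (-0.36, adjusted p = 0.846, edgeR). Shoot 1 and nitrogen-excess shoot 1 share a name series, the leading field of the library names. The miR159 family stood at 151070 and 140880 CPM there and at 7909 to 57445 CPM in the other shoots. Root 1 and nitrogen-excess root 1, of the same series, stood at 19436 and 36628 CPM. The cause was not tested. Of the 19 tested sequences of miR159, miR164, miR319 and miR396, 3 were called higher in root and 1 higher in shoot, against 17.6% and 8.50% of all 153.

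Of the auxin families, miR160, miR167 and miR393 each held 1 sequence called higher in shoot, and miR167 held both called higher in root. bdi-miR160e-5p, a sequence of the family that acts on repressing auxin response factors, stood at 202, 162.1 and 146 CPM in shoot, at 4.90 and 1.74 CPM in root 1 and 2, and at 139 CPM in the library labelled root 3. All roots were below all shoots. The difference was -3.87 ± 0.747 (adjusted p = 0.0125, edgeR) with 5 libraries and -1.99 ± 0.984 (adjusted p = 0.369, edgeR) with 6. The main miR160 sequence ata-miR160a-5p, which differs from it by T15A, showed no such difference, with -0.13 (adjusted p = 0.929, edgeR). gma-miR393k, of the family that acts on the TIR1 and AFB auxin receptors, stood at 296, 84.7 and 100 CPM in shoot and at 5.51, 0.870 and 56.5 CPM in root 1, 2 and 3. Its difference was -3.90 ± 1.09 (adjusted p = 0.0377, edgeR) with 5 libraries, on 9 and 1 counts in root 1 and root 2, and -2.93 (adjusted p = 0.292, edgeR) with 6.

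In miR167, which acts on activating auxin response factors, a 3p sequence was called higher in root. ata-miR167a-3p stood at 259, 111 and 108 CPM in shoot, at 1205 and 581 CPM in root 1 and 2, and at 121 CPM in the library labelled root 3, and was higher in root by 4.22 ± 0.739 (adjusted p = 0.00953, edgeR) with 5 libraries and by 3.71 (adjusted p = 0.292, edgeR) with 6. It made up 0.281% to 0.727% of the miR167 counts in shoot and 13.0% and 10.5% in root 1 and 2. On the 5p arm, ata-miR167f-5p stood at 9112, 12987 and 10408 CPM in shoot, at 858 and 732 CPM in root 1 and 2, and at 16859 CPM in the library labelled root 3, the highest of the 6. It was called higher in shoot (-1.93 ± 0.496, adjusted p = 0.0325, edgeR), and with 6 libraries stood at -0.80 (adjusted p = 0.665, edgeR). Another 3p sequence, ata-miR167b-3p, stood at 1643 to 2941 CPM in shoot, at 779 and 675 CPM in root 1 and 2 and at 1725 CPM in the library labelled root 3, and was not called (0.21, adjusted p = 0.846, edgeR).

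The most abundant miR167 sequence, ata-miR167d-5p, differs from ata-miR167f-5p by A22C. It kept a share of 60.9% to 64.8% of miR167 in shoot and of 67.6% and 60.7% in root 1 and 2, and was not called after TMM scaling (-0.47, adjusted p = 0.477, edgeR) but was on equal totals (-2.26, adjusted p = 0.0188, edgeR). ata-miR167d-3p was called higher in root by 1.84 ± 0.546 (adjusted p = 0.0469, edgeR), but its CPM was alike in both organs, 90.5 to 102 in shoot and 94.3 and 96.6 in root 1 and 2, and it was not called on equal totals (0.01, adjusted p = 0.983, edgeR) or with 6 libraries (1.49, adjusted p = 0.398, edgeR). Of 16 tested sequences of the auxin list, 2 were called higher in root and 3 higher in shoot, against 17.6% and 8.50% of all 153, with a median of -0.57.

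Among the families of growth phase and nutrients, 2 sequences were called higher in shoot. They were 1 of 15 tested on the growth phase list and 1 of 4 on the phosphate list, against 8.50% of all 153. ata-miR156c-3p, from the arm opposite the guide of the SPL-repressing miR156, stood at 796, 2844 and 2081 CPM in shoot, at 85.7 and 71.4 CPM in root 1 and 2, and at 2524 CPM in the library labelled root 3 (-2.73 ± 0.722 without it, adjusted p = 0.0336, and -1.16 with it, adjusted p = 0.55, edgeR). bdi-miR827-3p, which in rice acts on vacuolar phosphate transporters, stood at 268, 198 and 158.5 CPM in shoot, at 12.2 and 7.83 CPM in root 1 and 2, and at 499 CPM in the library labelled root 3 (-2.58 ± 0.670 without it, adjusted p = 0.0325, edgeR). Both organs overlapped once that library was counted as root, and the 6-library difference of bdi-miR827-3p was -0.50 ± 0.998 (adjusted p = 0.895, edgeR).

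The grass family miR444, which acts on MADS-box factors, held 1 called sequence after TMM scaling. It was the only call among 12 tested sequences of miR169 and miR444, where 17.6% of all 153 were called higher in root. bdi-miR444b was called higher in root by 2.31 ± 0.612 (adjusted p = 0.0336, edgeR; with 6 libraries 1.87, adjusted p = 0.369), with 121 to 177 CPM in shoot and 309 and 126 CPM in root 1 and 2. In CPM root 2 thus lies inside the range of the shoots, and bdi-miR444b was not called on equal totals. The main sequence osa-miR444b.1, at 11819 to 18412 CPM in shoot and 5744 and 3562 CPM in root 1 and 2, was not called after TMM scaling (0.12, adjusted p = 0.886, edgeR) but was on equal totals (-1.70, adjusted p = 0.0471, edgeR). miR168, which acts on AGO1 and was the second most abundant family, was not called either, with hvu-miR168-5p at 93227 to 175330 CPM in shoot and 69816 to 107380 CPM in root (1.01 with 5 libraries, adjusted p = 0.131, edgeR).

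The copper families miR397, miR398, miR408 and miR528, which act on laccases, superoxide dismutases and other copper proteins, were not called with either set of libraries after TMM scaling, and the direction of their median turned with the library labelled root 3. On equal totals without that library the families miR398 (-2.43, adjusted p = 0.0298, edgeR) and miR528 (-2.51, adjusted p = 0.0187, edgeR) were called higher in shoot. Of 8 tested sequences, 2 of which count the same miR528 reads, all 8 were positive with the 6 libraries, with a median of 2.24. Without that library 3 of the 8 were positive and the median was -0.52. The miR397 family stood at 359, 372 and 1063.5 CPM in shoot, at 230 and 127 CPM in root 1 and 2, and at 8360 CPM in the library labelled root 3. The positive median of the 6 libraries thus rests on that library. The sequences bdi-miR397b-5p and tae-miR408 stood at 2.05 and 1.54 with the 6 libraries (adjusted p = 0.398 and 0.532, edgeR) and at 0.02 and -0.95 with the 5 (adjusted p = 0.994 and 0.454, edgeR).

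The other listed nutrient and regulatory sequences were not called with either set after TMM scaling. On the arm opposite bdi-miR827-3p, bdi-miR827-5p stood at 360 to 984 CPM in shoot, at 41.6 and 46.1 CPM in root 1 and 2 and at 1354 CPM in the library labelled root 3 (-1.95 without it, adjusted p = 0.122, edgeR). gma-miR395h, of the sulfate family, stood at 4.94 to 37.6 CPM in shoot and at 1.84 to 35.1 CPM in root (-0.53 with 5 libraries, adjusted p = 0.789, edgeR), and cme-miR395f and the phasiRNA trigger zma-miR2275c-5p had too few counts to be tested. gma-miR156q, the guide of miR156, stood at 746 to 2369 CPM in shoot and at 107 to 669 CPM in root, all roots below all shoots, although after TMM scaling the groups overlapped (-1.18 with 5 libraries, adjusted p = 0.352, edgeR). hvu-miR168-3p (-1.41, adjusted p = 0.591, edgeR), ata-miR9863a-3p of the NLR regulators (-0.12, adjusted p = 0.929, edgeR) and bdi-miR1432 (0.18, adjusted p = 0.927, edgeR) differed by less than their SE.

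Among barley and wheat families with no settled target, 6 of 24 tested sequences were called higher in root and 2 higher in shoot, with a median of -0.11. Of all 153, 17.6% and 8.50% were called, and 4 of the 6 passed the filter only without the library labelled root 3. tae-miR9773 stood at 1921, 2010 and 1579 CPM in shoot, at 102 and 34.8 CPM in root 1 and 2, and at 1814 CPM in the library labelled root 3 (-2.99 ± 0.692 without it, adjusted p = 0.0226, and -1.60 with it, adjusted p = 0.398, edgeR). hvu-miR5049a stood at 510, 309 and 300.0 CPM in shoot, at 15.9 and 13.1 CPM in root 1 and 2, and at 319.1 CPM in the library labelled root 3 (-2.89 ± 0.694 without it, adjusted p = 0.0261, and -1.71 with it, adjusted p = 0.376, edgeR). In both, the 2 roots that resembled each other were below all shoots by a wide margin. Of the 6 root calls, tae-miR9779 and tae-miR9777 passed the filter with the 6 libraries too. tae-miR9779 stood at 56.8 to 82.9 CPM in shoot and at 90.6, 206 and 73.3 CPM in root 1, 2 and 3. tae-miR9777 stood at 12.3 to 15.6 CPM in shoot and at 18.4, 17.4 and 18.3 CPM in root 1, 2 and 3. Neither was called on equal totals or with the 6 libraries.

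The other 4 root calls of this group rest on few counts. hvu-miR6187 had 36 and 42 counts in root 1 and 2 and 0 in the other 4 libraries. tae-miR9675-3p had 23 and 10 counts there and 0 elsewhere, and tae-miR9778 had 23 and 83 counts, with 1 in the library labelled root 3 and 0 in the shoots. Set against a floor of 3 counts over the shoot group, root 1 and 2 were at least 35.1-fold, 14.8-fold and 47.7-fold higher. hvu-miR6181 stood at 0 to 1.62 CPM in shoot and at 13.5 and 77.5 CPM in root 1 and 2, and tae-miR5384-3p, of a family outside the list, at 0.809 to 4.604 CPM in shoot and 52.0 and 200.2 CPM in root 1 and 2. All 5 are among the 7 kept by the filter only through root 1 and 2, so these values are given as a description. In all of these the library labelled root 3 held at most 7.63 CPM. The family miR5200, which in Brachypodium acts on FT-like flowering genes, was called higher in shoot by family sum, with 82.1, 684 and 596 CPM in shoot, 4.28 and 17.4 CPM in root 1 and 2 and 253 CPM in the library labelled root 3 (-3.76 ± 1.17 without it, adjusted p = 0.0356, and -2.02 with it, adjusted p = 0.358, edgeR). Its main sequence ata-miR5200-5p just missed the threshold (-4.14 ± 1.26, adjusted p = 0.0508, edgeR). The small families miR4995 (-2.46 ± 0.665, adjusted p = 0.0221, edgeR) and miR5052 (-3.80 ± 1.07, adjusted p = 0.0234, edgeR) were also called higher in shoot, and in root miR5083 (3.94 ± 1.08, adjusted p = 0.0222, edgeR) was called at 20.9 and 27.5 CPM in root 2 and 1 against at most 10.7 CPM in shoot. With 6 libraries these 3 families stood at -1.04, -2.23 and 3.81, with adjusted p of 0.393, 0.198 and 0.198 in edgeR's test. The abundant families miR5048, with hvu-miR5048b as its main sequence, and miR9662, with tae-miR9662b-3p, were not called after TMM scaling (0.04 and 0.09, adjusted p = 0.969 and 0.959, edgeR), while on equal totals miR5048 was called higher in shoot (-1.63, adjusted p = 0.0230, edgeR) and miR9662 was not (-1.56, adjusted p = 0.0944, edgeR).

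Names that are doubtful as miRNAs because they look like pieces of rRNA or tRNA were followed as a measure of RNA quality. They took 1.03%, 0.790% and 0.953% of the counts in shoot 1, 2 and 3, 3.85% and 19.9% in root 1 and 2, and 0.945% in the library labelled root 3. gma-miR6300 alone held 2.27% of root 1 and 18.2% of root 2 and at most 0.562% of a shoot, a difference of 6.93 ± 1.14 (adjusted p = 0.00842, edgeR) with 5 libraries and of 6.59 (adjusted p = 0.196, edgeR) with 6. ath-miR8175 was high in root 1 (7336 CPM) and not in root 2 (796 CPM, against 886 CPM in shoot 1), while bdi-miR5054 stood at 2597 and 3165 CPM in root 1 and 2 and at 747 to 1031 CPM in shoot. Of 6 tested sequences of the list 4 were called higher in root, against 17.6% of all 153, and gma-miR5368 was called higher in shoot, against 8.50%, at 124 to 218 CPM against 2.45 and 3.48 CPM in root 1 and 2 and 336 CPM in the library labelled root 3. The miR5368 family stood at -4.28 (adjusted p = 0.00406, edgeR) with 5 libraries and at -0.78 (adjusted p = 0.835, edgeR) with 6. ppt-miR894 stood at 2613 to 5774 CPM in shoot and at 5767 and 12136 CPM in root 1 and 2 (2.93 ± 0.590, adjusted p = 0.0141, edgeR; with 6 libraries 2.58, adjusted p = 0.292). This share was high in the same 2 libraries that carry the other root calls. With these names and osa-miR5072 left out of the fit, 31 sequences were called without the library labelled root 3.

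Length, last bases and first base of the called sequences were counted beside those of all sequences tested. Of the 27 higher in root, 8 were 20 nt or shorter (29.6%), against 1 of 13 higher in shoot and 18 of all 153 tested (11.8%). The 3′ end CCA, the end added to mature tRNAs, closed 4 of the 27 (14.8%), 1 of the 13 and 6 of the 153 (3.92%). A first base U, typical of AGO1 guides, was found in 13 of the 27, 9 of the 13 and 82 of the 153. These counts are descriptions with no test, since sequences of one family are not independent.

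Length and first base of all counts were tested per library by exact permutation, two-sided, where the smallest p that 3 against 3 can reach is 0.1. Sequences of 22 nt, the length that can trigger secondary siRNAs, took 8.29%, 8.26% and 8.04% of the counts in shoot, 2.22% and 1.99% in root 1 and 2, and 8.14% in the library labelled root 3 (exact p = 0.2). hvu-miR5048b and ata-miR167d-5p together with ata-miR167f-5p made up most of them in every library. Sequences starting with U took 96.9% to 97.6% in shoot and 95.5%, 79.7% and 96.1% in root, lower in all 3 roots (exact p = 0.1, the smallest possible), and root 2 was the library with 18.2% of gma-miR6300, which starts with G. The shares of 21 nt (exact p = 0.8), 20 nt (exact p = 0.3) and 24 nt (exact p = 0.2) overlapped between the organs. Without the library labelled root 3, the root minus shoot difference was -6.09 percentage points for 22 nt, -9.64 for a first U, -4.64 for 21 nt, 0.728 for 20 nt and -0.181 for 24 nt.

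**Figure D4:**
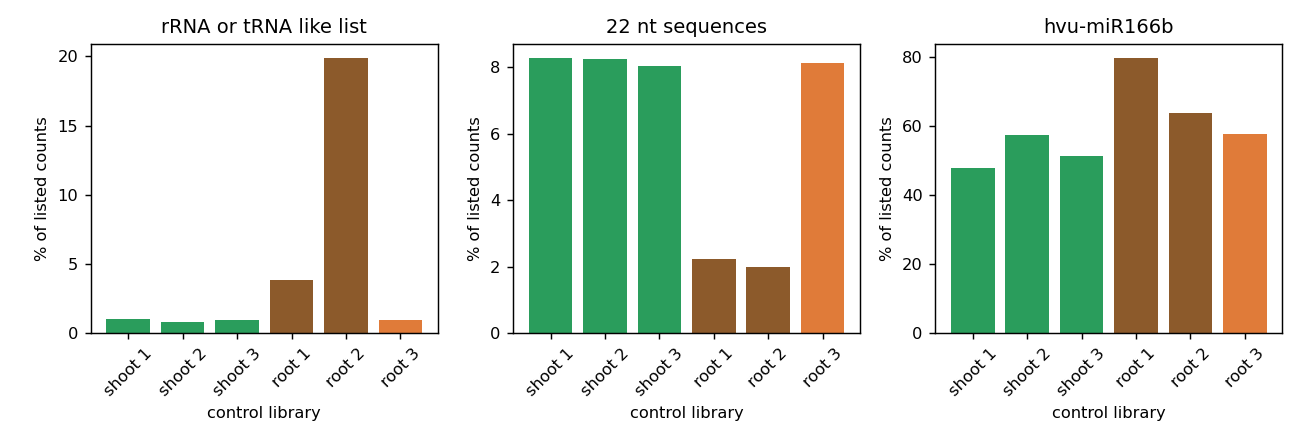
Bars give the percentage of listed counts held by the rRNA or tRNA like names, by 22 nt sequences and by hvu-miR166b in each control library. Root 1 and root 2 stand apart from the shoots in all 3 panels, and the library labelled root 3 stands with the shoots at 0.945%, 8.14% and 57.6%.

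The nitrogen-excess plants gave a second view of the organ difference in 6 libraries of their own. There, 26 of the 27 root sequences were also higher in root, with a median difference of 1.80, and 12 of the 13 shoot sequences were also higher in shoot, with a median of -2.28. Over all 153 sequences 55 were higher in root and the median was -0.35. The exceptions were ata-miR167d-3p (-0.20) and bdi-miR827-3p (0.06). All 17 root families and all 6 shoot families had the same direction there, where 32 of all 65 families were higher in root with a median of -0.04. The 27 root sequences include 7, and the 17 root families 7, that passed the filter only without the library labelled control root 3. The counts and medians here were not taken without them.

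Here too 1 library stood apart. tae-miR319 stood at 28.9 and 46.2 CPM in nitrogen-excess shoot 1 and 2, at 1840 CPM in the library labelled nitrogen-excess shoot 3, and at 1269 to 9931 CPM in the 3 nitrogen-excess roots. The highest of these, 9931 CPM, is that of nitrogen-excess root 3, the only library of its name series. ata-miR171a-3p stood at 182 and 298 CPM in nitrogen-excess shoot 1 and 2, at 4841 CPM in the library labelled shoot 3 and at 2597 to 6178 CPM in the roots. ata-miR396c-5p stood at 27173 and 14832 CPM, at 5608 CPM in the library labelled shoot 3 and at 1818 to 4988 CPM in the roots. Without that library 27 of 27 root and 12 of 13 shoot sequences kept their direction, with medians of 3.36 and -1.97, where 79 of all 153 were higher in root with a median of 0.05. That library was singled out by values of these same sequences, so these values are given as a description. The 27 root sequences and 17 root families again include the 7 of each that passed the filter only without control root 3. Of the families, 16 of 17 root families kept their direction, the exception being miR7782 (-0.05). hvu-miR166b differed little in these plants, by 0.41, and by 0.98 without that library.

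**Figure D5:**
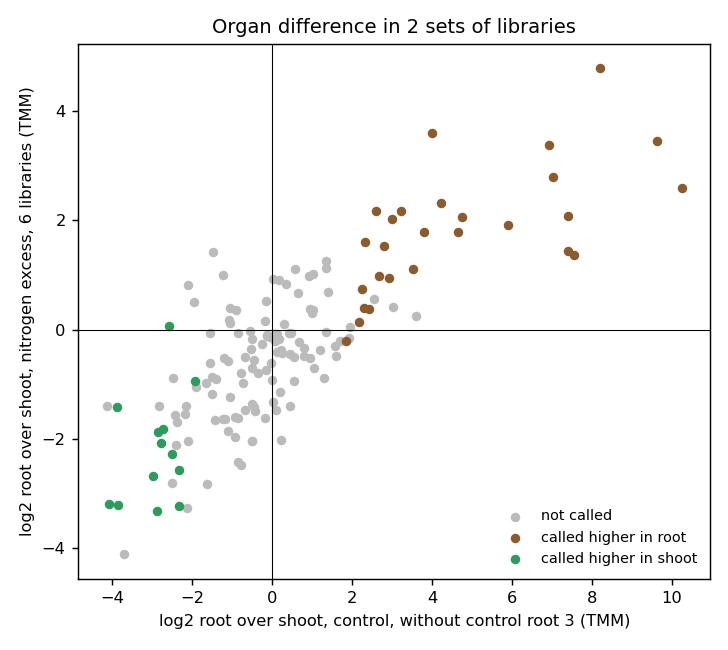
Each point is one of the 153 sequences, with the log2 difference of root over shoot in the 5 control libraries on the x axis and in the 6 nitrogen-excess libraries on the y axis, both after TMM scaling. Of the sequences called in control plants, 26 of 27 root sequences lie above 0 and 12 of 13 shoot sequences do not, the exception being bdi-miR827-3p at 0.06. The 27 include 7 that passed the filter on low counts only without control root 3.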

How the data were processed

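Small RNA was sequenced from total RNA of whole organs with the Illumina TruSeq small RNA kit, per the labels' protocols. The deposited counts, one table per organ, are whole numbers per listed miRNA sequence and library, and the columns of raw counts were used. The deposited normalized signal columns, the deposited log2 fold changes and the deposited p-values, which the authors made from these counts per the file headers, were not used. The submitters' processing notes name DESeq2, with no version. How reads were trimmed, matched and counted is not stated in the sources used here.

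The tables were joined on the sequence. Counts were fitted with edgeR 4.0.16 in R 4.3.3 with organ as the term, TMM scaling, filterByExpr (minimum count 10, minimum total 15), the quasi-likelihood test and Benjamini-Hochberg adjustment at 0.05 over all sequences tested. The SE is the fold change divided by the square root of F. Family counts, summed over the sequences of a family, went through the same fit, without the entry OLAs_528, which counts the same reads as ata-miR528-3p. Family differences are scaled apart from those of sequences. Levels are CPM of the listed total, without TMM. The p-values measure the spread between libraries whose separate origin the labels give as biological replicates. On simulated data the fitting step recovered most of the planted changes. Those data had a smaller spread between libraries than measured here and no library unlike its group. The simulation therefore does not show how the fit performs on these libraries. Wilson intervals at the 95% level, which cover counting error only, were at most 3.89 percentage points wide for the shares within miR166, miR167, miR171, miR319 and miR396, and at most 0.239 for shares of a whole library.

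The alternatives were DESeq2 1.42.0 size factors or equal totals, no filter or at least 20 counts in 3 libraries, DESeq2, limma-voom (limma 3.58.1), robust estimation, the replicate number as a block, the name series as a term or its second series alone, all 12 libraries in the fit, the most abundant sequence left out, and each library left out. Leaving out rRNA or tRNA like names, keeping the features of the 6-library filter, and the block without control root 3 were added after seeing the data. The comparison, the family lists and the library to leave out were chosen with earlier results of these data known. Named were the 10 called sequences with the largest change in each direction without overlap, at most 2 per family, the 10 called families with the largest change in each direction, the 10 most abundant families, and the 2 most abundant sequences of each list. Other called sequences, the nearest relatives of named ones and other members of a named family were named after their values were seen.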

Additional observations from a re-analysis of the deposited data

How the results depend on the processing

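The calls without the library labelled control root 3 rest on 2 against 3 libraries, and sequences under the filter on low counts were not tested. With the 6 libraries as labelled, the count of called sequences was 0 with TMM, DESeq2 size factors, equal totals, at least 20 counts in 3 libraries, limma-voom, robust estimation, the name series as a term or alone, all 12 libraries, and without hvu-miR166b. It was 20 with no filter and 16 with DESeq2. For families it was 0 except for 8 with no filter, 12 with DESeq2 and 8 with all 12 libraries. The replicate block gave 0 sequences and 0 families. The same-numbered shoot and root deviated from their group means with correlations of 0.495, -0.06 and 0.126, and differently numbered ones with -0.474 to 0.278. With 3 libraries per organ, the one labelled root 3 among them, these values cannot tell whether same-numbered libraries share plants. Without number 3 the same-numbered correlation was 0.326 and the crossed one -0.326, which with 2 numbers differ by sign alone. Leaving out 1 library at a time gave 0 to 40 sequences and 0 to 23 families, and only without the library labelled control root 3 was the count above 0. Without it, the called sequences numbered 40 with DESeq2 size factors, 69 with equal totals (13 higher in root, 56 in shoot), 52 with DESeq2, 26 with all other 11 libraries in the fit, 41 with the replicate block, 31 without the rRNA or tRNA like names and 35 on the features of the 6-library filter. Families numbered 22, 40 (9 and 31), 29, 23, 18, 15 and 13 under the same settings.

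The root minus shoot share, in percentage points, moved from 0.492 to 2.71 for 20 nt, from -3.08 to -18 for 21 nt, from -0.123 to -0.227 for 24 nt and from -6.81 to -23.3 for a first U when hvu-miR166b was left out. As a share of sequences with at least 10 counts it was -0.823 for 20 nt, 0.116 for 22 nt and 0.448 for 24 nt.

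For the named sequences and families, differences were compared relative to the median of all those tested. Of 1304 such values, 976 kept direction and side of the threshold, 225 passed it and 103 changed sign. None could lose a call, since none was called with the 6 libraries. The sign turned for values near 0, for the copper and miR827 sequences, and for the following. Equal totals gave 0.05 for gma-miR5368, 0.47 and 0.45 for bdi-miR827-3p and bdi-miR827-5p, 0.26 for gma-miR395h, -0.03 for osa-miR444b.1, -0.28 for hvu-miR5048b, -0.27 for tae-miR9662b-3p, and 0.01, -0.32, -0.31 and -0.05 for the families miR5368, miR5048, miR9662 and miR444. No filter gave -0.32, -0.39 and -0.21 for osa-miR444b.1, hvu-miR5048b and tae-miR9662b-3p, and -0.33, -0.95, -0.90, -0.15 and -0.85 for the families miR168, miR5048, miR9662, miR319 and miR444. limma-voom gave 0.26 for gma-miR395h and hvu-miR159b, -0.04 for hvu-miR5048b, -0.03 for tae-miR9662b-3p and 0.24 for the miR159 family. In the same order the replicate block gave 0.28, 0.28, -0.04, -0.01 and 0.31. The name series as a term gave 0.14 for gma-miR395h, 0.28 for hvu-miR159b and 0.24 for the miR159 family. Its second series alone gave 0.32 and 0.74 for bdi-miR827-3p and bdi-miR827-5p, 1.32 for gma-miR395h, -0.23 for osa-miR444b.1, 1.00 for hvu-miR159b, 0.07 for hvu-miR168-3p, and 0.83, -0.05, -0.28 and -0.15 for the families miR159, miR9662, miR319 and miR444. All 12 libraries gave -0.05 for osa-miR444b.1, -0.13 for hvu-miR5048b, and -0.47, -0.44 and -0.33 for the families miR5048, miR9662 and miR444. Leaving out hvu-miR166b gave -0.62 for the miR166 family, and leaving out the rRNA or tRNA like names gave 0.00 for hvu-miR5048b.

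Without the library labelled control root 3, tae-miR408 stood at -0.98 with DESeq2 and with its size factors, -0.77 with equal totals, -1.11 with all other 11 libraries, -0.82 with the replicate block, -0.86 without the rRNA or tRNA like names and -0.88 on the features of the 6-library filter. In these settings bdi-miR1432 stood at 0.14, 0.14, 0.42, 0.12, 0.31 and 0.29 (all other 11 libraries not among them), and ata-miR9863a-3p at 0.00 with equal totals, 0.26 with the replicate block, 0.00 without the rRNA or tRNA like names and 0.01 on the 6-library features. The miR159 family stood at 0.06 and 0.11 in the last pair of settings, and all other 11 libraries gave -0.10 for bdi-miR397b-5p and -0.02 for the miR5048 family. Leaving out 1 library at a time gave -1.88 to 0.18 for bdi-miR827-5p, -2.51 to 0.11 for bdi-miR827-3p, -0.62 to 0.72 for gma-miR395h, -0.29 to 0.19 for osa-miR444b.1, -1.06 to 1.01 for hvu-miR159b, -2.65 to 0.90 for hvu-miR168-3p, -1.39 to 0.81 for bdi-miR1432, -0.43 to 0.31 for hvu-miR5048b, -0.88 to 0.62 for tae-miR9662b-3p and -0.88 to 2.27 for tae-miR408. For families it gave -1.0 to 0.55 for miR159, -0.51 to 0.28 for miR5048, -0.84 to 0.61 for miR9662, -0.44 to 0.27 for miR444, -0.10 to 1.36 for miR319 and 0.00 to 1.04 for miR168. The causes were not tested.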

Other observations

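The library labelled control root 3 held more of the copper miRNAs than any other control library, shoots included. The miR398 family stood at 1553 CPM there and at 63.7 CPM or less in the other 5 control libraries, 24.4 times the highest of them. The miR528 family stood at 963 CPM against at most 93.8 CPM, miR408 at 2804 CPM against at most 352 CPM, and miR397 at 8360 CPM against at most 1063.5 CPM. Among the nitrogen-excess libraries, shoot 1 held the most of these 4 families, with 1352 CPM of miR398, 698 CPM of miR528, 2560 CPM of miR408 and 7712 CPM of miR397. The phosphate family miR399 stood at 337 CPM in the library labelled control root 3, 2.32 times the highest other control, and miR9774 at 1540 CPM, 1.95 times.

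This library thus differed from the control shoots in the copper families while it resembled them in the sequences that separated root 1 and root 2 from the shoots. Of the 40 sequences called without it, it lay inside the CPM range of the shoots in 15 of 27 root sequences and in 8 of 13 shoot sequences. The 27 include 7 that passed the filter only without this library, so its low values there follow from how they were kept. The other tested sequences were not counted this way, so the position is not known to be particular to these 40. The origin of its RNA was not tested, and all groups above follow the labels.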
